A study of Mus musculus with 8 samples.

Results

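Smooth muscle cells keep Ca2+ in the sarcoplasmic reticulum, and 10 genes of that store were followed here over 3 mouse organs: the release channels Ryr2, Ryr3, Itpr1, Itpr2 and Itpr3, the uptake pump Atp2a2 with its inhibitor Pln, the junction protein Jph2, and the store sensor Stim1 with the entry channel Orai1. The genes were picked by symbol, with earlier results of these data known. All 10 were among the 21649 genes of the deposited table and passed the filter on low values. RNA came from cells labelled as non-vascular smooth muscle cells and sorted by fluorescence from lung (2 libraries), intestine (3 libraries) and bladder (3 libraries), to ask how such cells differ between organs. All mice shared 1 genotype, Cspg4-Dre/Acta2-CreERT/R26-GFP, and 1 treatment, tamoxifen given on 3 days (0.75 mg for each 10 g of mouse). Dre and Cre are recombinases named here after the promoters that drive them, the CreERT form is activated by tamoxifen, and Acta2 is also used by vascular muscle and activated fibroblasts. The sources used here do not state the sort gate, the age of the mice or how many mice made up a library.

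In smooth muscle, Ca2+ leaves the store through ryanodine receptors, which open on Ca2+ itself, and through inositol trisphosphate receptors, which open when hormones or transmitters act on Gq-coupled receptors. SERCA pumps return it, and phospholamban slows the SERCA pump until it is phosphorylated. When the store empties, STIM1 in its membrane gathers at the cell surface and opens ORAI1, while junctophilins hold store and surface membranes close together.

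Libraries held 9.72 to 13.62 M reads as estimated from the spacing of the deposited values, and the 3 bladder libraries were the shallowest. Values are normalized read counts, and differences are on the log2(value + 1) scale. They were tested with limma over all genes with Benjamini-Hochberg adjustment, at an adjusted p under 0.05. The labels do not say whether each library is its own mouse, so a p-value here weighs a difference against a spread that could be technical only. All 10 smooth muscle markers were read in every library, with a summed value of 36905 to 39980 in lung, 35660 to 38678 in intestine and 21598 to 26137 in bladder. The markers did not all follow these sums. In intestine 6 were higher and 2 lower than in bladder. In lung 6 were higher and 0 lower than in bladder (5 and 1 under 1 other scaling), and 2 higher and 0 lower than in intestine. Markers of other cells were read too. Cardiac muscle markers summed to 5319 to 6516 in lung, 596 to 713 in intestine and 592 to 726 in bladder, and epithelial markers to 755 to 1212, 17669 to 18901 and 4303 to 6768. Enteric neuron markers summed to 940 to 1532 in lung, 5948 to 6524 in intestine and 905 to 1066 in bladder, and fibroblast markers to 29670 to 33525, 40456 to 43184 and 57807 to 65334. Pericyte and vascular muscle markers, of cells that the label leaves out, summed to 22400 to 26549 in lung, 26146 to 27370 in intestine and 9695 to 10040 in bladder, all 10 being read in every library. Of these, 8 of 10 were higher and 0 lower in lung than in bladder, 8 higher and 1 lower in intestine than in bladder, and 1 higher and 1 lower in lung than in intestine. Cspg4, the gene that names the Dre allele, had 4757 and 4045 in lung, 4370, 4617 and 4220 in intestine, and 417, 387 and 433 in bladder. Ryr2, Itpr1, Jph2, Irag1, Rgs4 and Rgs5 (itself on that list) were likewise lower in bladder than in both other organs, and the part of pericytes and vascular muscle in their values was not tested. In such bulk RNA, fewer cells of a type and less RNA per cell cannot be told apart.

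Intestine had the highest mean of 7 of these genes, and 8 of 10 differed over the 3 tissues by limma's F test, against 62.9% of all tested genes. Compared with bladder, 7 of the 10 genes were higher in intestine (Ryr2, Itpr1, Itpr2, Itpr3, Pln, Jph2 and Stim1) and 0 lower (0 at an unadjusted p under 0.05 and 0 with limma-voom), while 51.9% of 18097 tested genes were called in either direction, 28.7% higher and 23.3% lower. Compared with intestine, 1 gene (Jph2) was higher in lung and 6 were lower (Itpr1, Itpr2, Itpr3, Atp2a2, Pln and Stim1), against 39.5% of all tested genes called, 15.9% higher and 23.6% lower. Compared with bladder, 3 genes were higher in lung (Ryr2, Itpr1 and Jph2) and 3 lower (Itpr3, Atp2a2 and Stim1), against 41% of all tested genes called, 19.2% higher and 21.8% lower. The share of members called was 70% for both comparisons with intestine and 60% for lung and bladder. Libraries did not overlap for 8 members in lung and intestine (58.6% of all tested genes), 6 in lung and bladder (58.1%) and 7 in intestine and bladder (63.4%). The median log2 difference of the 10 genes was -0.67 for lung minus intestine, -0.15 for lung minus bladder and 0.92 for intestine minus bladder, beside -0.04, 0 and 0.06 over all tested genes. The 3 comparisons share libraries, so they are not independent of each other. The scaling matters for small differences from bladder. As deposited, 55.2% of all calls in intestine minus bladder and 46.7% in lung minus bladder were higher. With the deposited scaling undone these shares were 81.2% and 80.7%, and the median of all genes was 0.45 and 0.48.

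**Figure D1:**
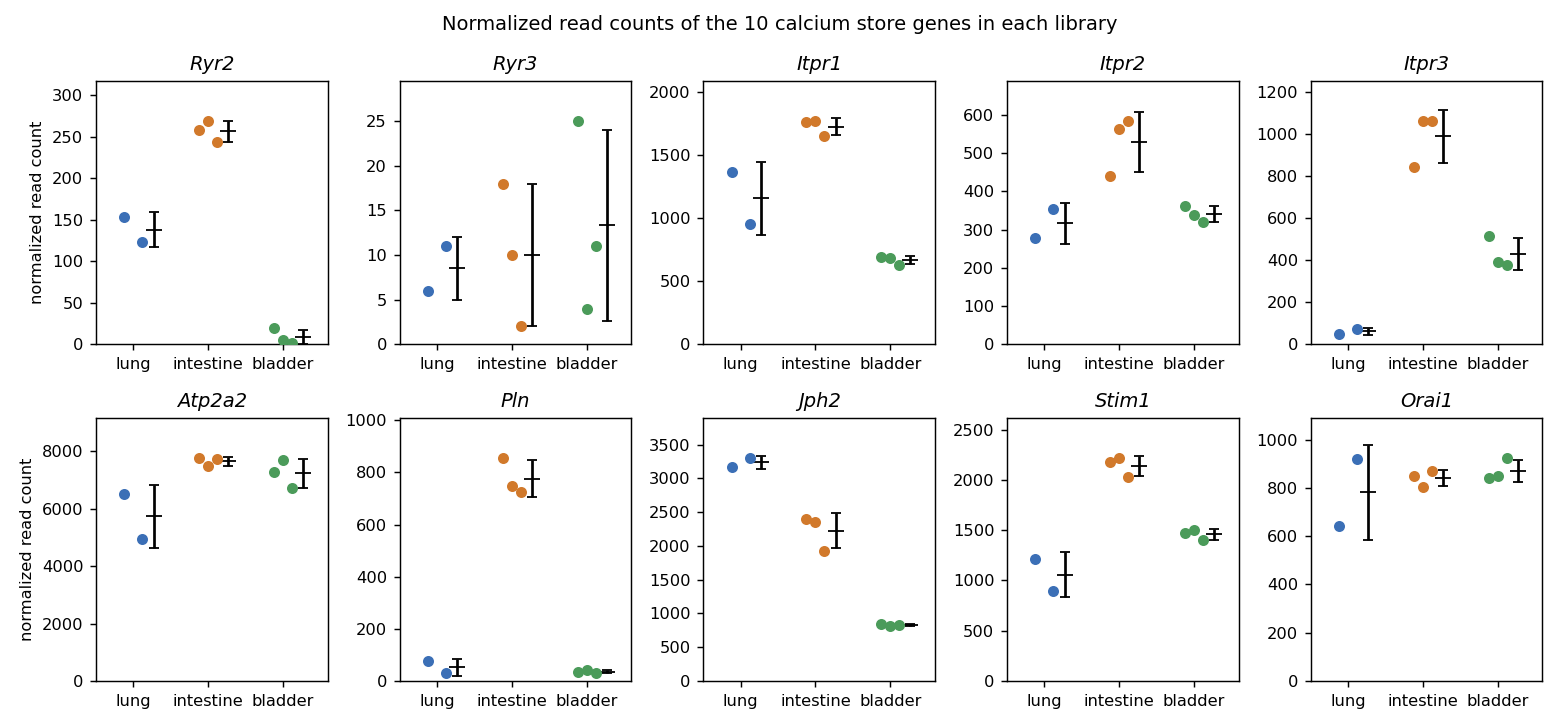
Normalized read count (vertical axes, each starting at 0) of the 10 genes in every library of lung, intestine and bladder. Points are libraries, and the black bars are the mean and SD of a tissue, trimmed at 0. Pln lies between 725 and 856 in intestine and at 76 or less elsewhere, and Itpr3 lies at 48 and 74 in lung.

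**Figure D2:**
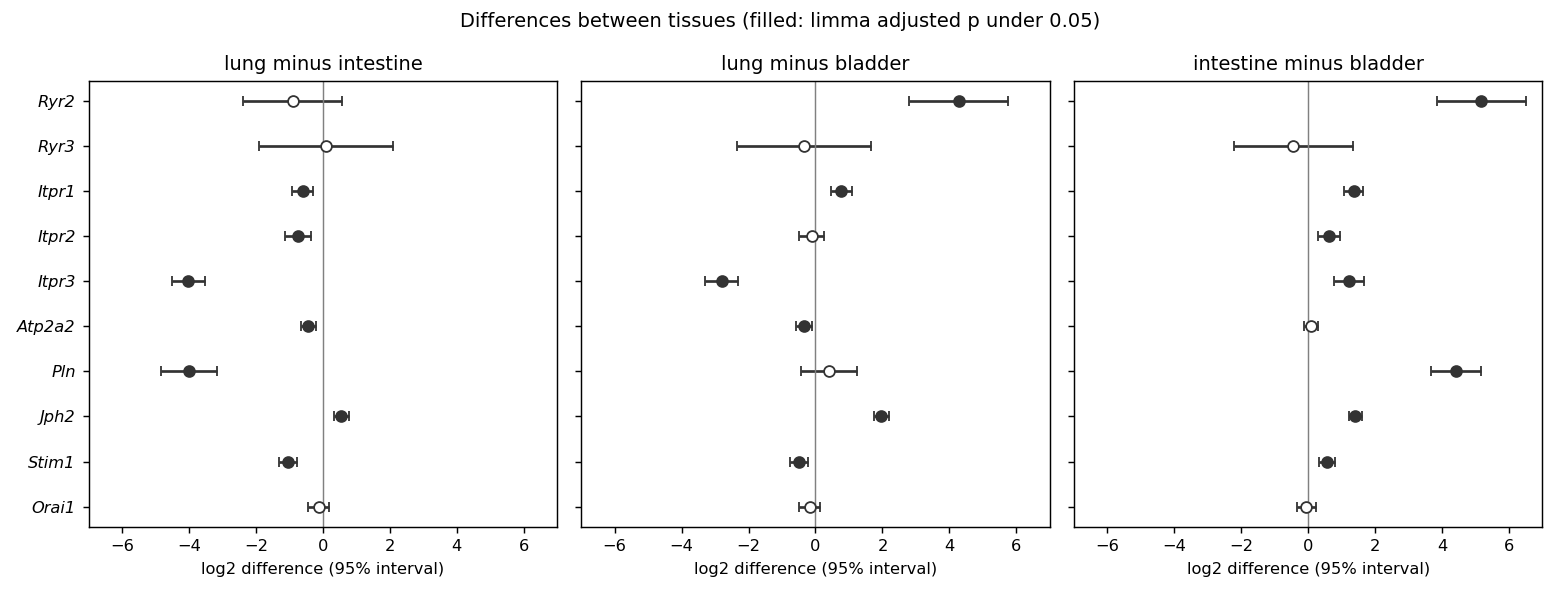
Log2 difference of each gene (horizontal axes) with its 95% interval from limma for lung minus intestine, lung minus bladder and intestine minus bladder. Filled points passed an adjusted p of 0.05. Differences reach -4.02 for Itpr3 in lung minus intestine and 5.18 for Ryr2 in intestine minus bladder.

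Among the release channels, Ryr2, the ryanodine receptor of heart muscle that is also found in smooth muscle and neurons (chromosome 13, 11567988 to 12121831, minus strand, build mm39), was far lower in bladder than in the other organs. It had 153 and 123 in lung, 258, 269 and 244 in intestine, and 19, 5 and 2 in bladder. The 3 tissues did not overlap. Ryr2 was 19.4-fold higher in lung than in bladder (log2 difference 4.28, SE 0.65, adjusted p = 0.000727) and 36.2-fold higher in intestine than in bladder (log2 5.18, SE 0.58, adjusted p = 6.96e-05). The size of both rests on few reads in bladder: without bladder library 1 they were 5.03 and 5.93, and without bladder library 3 they were 3.66 and 4.56. Lung against intestine did not pass (log2 -0.90, 95% interval -2.37 to 0.57, adjusted p = 0.307), but it did with limma-voom weights (adjusted p = 0.0133) and with the bladder libraries left out of the fit (adjusted p = 0.0143). Cardiac markers were highest in lung, and enteric neuron markers were highest in intestine. The part of either in the Ryr2 values was not tested.

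Ryr3, a ryanodine receptor of many tissues at low level (chromosome 2, 112461700 to 113047441, minus strand), was close to the limit of reading everywhere. It had 6 and 11 in lung, 18, 10 and 2 in intestine, and 25, 4 and 11 in bladder, or 2 to 20 reads a library. The ranges of all tissues overlapped, and no pair passed (adjusted p = 0.942, 0.803 and 0.67 for lung minus intestine, lung minus bladder and intestine minus bladder). The 95% interval for lung minus intestine ran from -1.90 to 2.10, so a difference of that size in either direction was not excluded. Over 3219 nt the gene overlaps Aven on the opposite strand, which had 456 to 661, and the kit does not mark strand.

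The inositol trisphosphate receptors differed in type between organs. Itpr1, the type described as the main one of muscle and brain (chromosome 6, 108190057 to 108528070, plus strand), had 1362 and 949 in lung, 1760, 1768 and 1648 in intestine, and 689, 687 and 630 in bladder. The 3 tissues did not overlap and kept the order intestine, lung, bladder. It was lower in lung than in intestine (log2 -0.60, SE 0.14, adjusted p = 0.00771), higher in lung than in bladder (log2 0.77, SE 0.14, adjusted p = 0.00199) and higher in intestine than in bladder (log2 1.37, SE 0.12, adjusted p = 1.85e-05).

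Itpr2, the type of heart muscle and liver (chromosome 6, 146009797 to 146403721, minus strand), varied least of the 3. It had 279 and 354 in lung, 441, 564 and 584 in intestine, and 363, 339 and 321 in bladder. Every intestine library lay above every other library, while lung and bladder overlapped. Its log2 difference was -0.74 (SE 0.17, adjusted p = 0.00694) for lung minus intestine and 0.62 (SE 0.15, adjusted p = 0.00652) for intestine minus bladder. Lung against bladder gave -0.12 (95% interval -0.49 to 0.26, adjusted p = 0.629).

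Itpr3, a type abundant in many epithelia as well as in muscle (chromosome 17, 27276278 to 27341197, plus strand), was the one that set lung most apart. It had 48 and 74 in lung, 843, 1060 and 1060 in intestine, and 515, 390 and 377 in bladder. The tissues did not overlap. It was 16.2-fold lower in lung than in intestine (log2 -4.02, SE 0.22, adjusted p = 1.39e-06), 7.00-fold lower in lung than in bladder (log2 -2.81, SE 0.22, adjusted p = 1.37e-05) and 2.32-fold higher in intestine than in bladder (log2 1.21, SE 0.20, adjusted p = 0.000684). The epithelial markers have the same order of tissues, 9 of 9 being lower in lung than in intestine, 8 of 9 lower in lung than in bladder with 1 higher, and 8 of 9 higher in intestine than in bladder. Their part in the Itpr3 values was not tested.

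Levels of different genes were set side by side per kb of exon, counting the exons of all annotated transcripts of a gene together. By that measure Itpr1 made up most of the release channel signal in lung and shared it with Itpr3 elsewhere. The length was 18319 nt for Itpr1 and 9019 nt for Itpr3, and by value alone Itpr1 was above Itpr3 in every library. The shares therefore depend on the exons counted. Itpr1 held 71.4% and 58.4% of the summed value per kb of the 5 channels in lung, 41.9%, 36.8% and 35.2% in intestine, and 31.0%, 36.0% and 34.9% in bladder. Itpr3 held 5.11% and 9.24% in lung, 40.8%, 44.9% and 46.0% in intestine, and 47.1%, 41.6% and 42.4% in bladder. The shares of both genes in lung lay outside those of the other organs. Ryr2 held 5.10% and 4.81% in lung, 3.91%, 3.57% and 3.32% in intestine, and 0.544%, 0.167% and 0.0705% in bladder. Itpr2 held 18.1% and 26.9% in lung, 12.996%, 14.5% and 15.4% in intestine, and 20.2%, 22.01% and 22.01% in bladder. The sum itself was 104 and 88.8 per kb in lung, 229, 262 and 256 in intestine, and 121, 104 and 98.5 in bladder, so that intestine libraries had the most and lung and bladder overlapped.

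**Figure D3:**
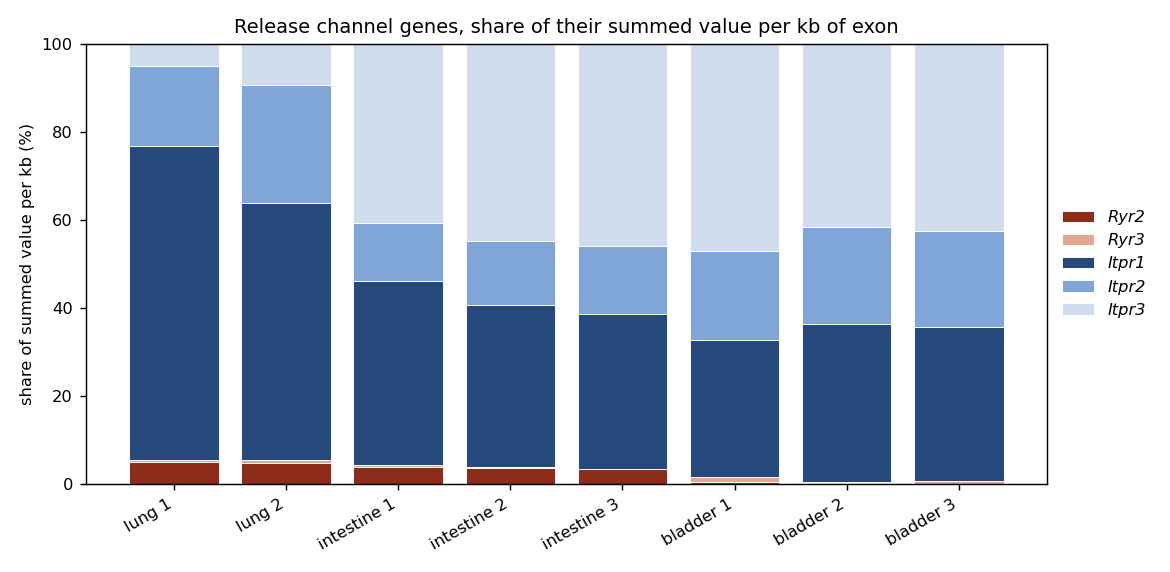
Share of each release channel gene in the summed normalized value per kb of exon of the 5 genes (vertical axis, percent), 1 bar per library of lung, intestine and bladder. Itpr3 takes 5.11% and 9.24% in lung and 40.8% or more in every other library.

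On the uptake side the inhibitor differed far more between organs than the pump, and both were lower in lung than in intestine. Atp2a2, which encodes the SERCA2 pump of muscle and most other cells (chromosome 5, 122591576 to 122640288, minus strand), was the most abundant of the 10 genes per kb in each organ. It had 6507 and 4959 in lung, 7774, 7478 and 7728 in intestine, and 7290, 7690 and 6714 in bladder. Both lung libraries lay below all others, and intestine and bladder overlapped. It was 1.35-fold lower in lung than in intestine (log2 -0.43, SE 0.10, adjusted p = 0.00939) and 1.271-fold lower in lung than in bladder (log2 -0.35, SE 0.10, adjusted p = 0.0249), and intestine minus bladder was 0.09 (95% interval -0.12 to 0.29, adjusted p = 0.471). These small differences depend on the processing. Without lung library 2 they were -0.24 (adjusted p = 0.0528) for lung minus intestine and -0.15 (adjusted p = 0.178) for lung minus bladder. The call for lung minus bladder was also lost without intestine library 3 (adjusted p = 0.0504), bladder library 1 (adjusted p = 0.0598) or bladder library 2 (adjusted p = 0.0784). With the deposited scaling undone they were -0.31 (adjusted p = 0.0516) and 0.17, and intestine minus bladder became 0.48 (adjusted p = 0.00319). Over the 20 alternatives intestine minus bladder ran from -0.075 to 0.523. Atp2a2 had 0.942 to 1.42 reads per nt of exon, and the 339 genes with a mean of at least 1 had a median log2 difference of -0.02 for lung minus intestine, -0.42 for lung minus bladder and -0.40 for intestine minus bladder.

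Pln, which encodes phospholamban, the small membrane protein that inhibits SERCA2 (chromosome 10, 53213763 to 53222083, plus strand), was highest in intestine. It had 76 and 29 in lung, 856, 749 and 725 in intestine, and 34, 43 and 30 in bladder. Intestine stood apart from all other libraries, and lung and bladder overlapped. It was 16.1-fold lower in lung than in intestine (log2 -4.01, SE 0.37, adjusted p = 3.08e-05) and 21.4-fold higher in intestine than in bladder (log2 4.42, SE 0.33, adjusted p = 5.70e-06). The first value was -4.69 without lung library 1 and -3.33 without lung library 2. Lung minus bladder was 0.41 (95% interval -0.43 to 1.24, adjusted p = 0.422), but -0.27 without lung library 1 and 1.09 without lung library 2, where it passed (adjusted p = 0.0144). Markers of several other cell types were also highest in intestine. Enteric neuron markers summed to 940 to 1532 in lung (Chat at 0), 5948 to 6524 in intestine and 905 to 1066 in bladder (Chat, Snap25 and Vip at 0), with 12 of 13 lower in lung than in intestine and 13 of 13 higher in intestine than in bladder. Glia markers summed to 292 to 370 in lung (Sox10 at 0), 1564 to 2121 in intestine and 156 to 224 in bladder, with 6 of 8 lower in lung than in intestine and 8 of 8 higher in intestine than in bladder. Epithelial markers summed to 755 to 1212 in lung, 17669 to 18901 in intestine and 4303 to 6768 in bladder. Endothelial markers summed to 7021 to 7706 in lung, 11568 to 13313 in intestine and 4702 to 6112 in bladder. Of these 9 markers, 4 were lower and 0 higher in lung than in intestine, and 8 higher and 1 lower in intestine than in bladder. Cardiac markers, of cells that also hold phospholamban, summed to 5319 to 6516 in lung, 596 to 713 in intestine and 592 to 726 in bladder. The part of any of these cells in the Pln values was not tested. The gene lies within Cep85l on the opposite strand, which had 286 and 139 in lung, 447, 439 and 362 in intestine, and 268, 247 and 186 in bladder, and reads of the shared stretch cannot be told apart without strand.

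The ratio of inhibitor to pump followed Pln. Per 100 of Atp2a2, both per kb of exon, Pln stood at 2.57 and 1.29 in lung, 24.3, 22.1 and 20.7 in intestine, and 1.03, 1.23 and 0.985 in bladder. Every intestine library exceeded every other library. Lung library 2, at 1.29, was only narrowly above bladder library 2, at 1.23. In lung library 2 Pln itself was 29, below every bladder library, and Atp2a2 was 4959, the lowest of all libraries.

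Jph2, the junctophilin of heart and smooth muscle that ties the store to the surface membrane (chromosome 2, 163178162 to 163239913, minus strand), was the gene of the set that was highest in lung. It had 3171 and 3302 in lung, 2391, 2359 and 1925 in intestine, and 842, 817 and 831 in bladder. The tissues did not overlap, and bladder libraries differed little among themselves. It was 1.46-fold higher in lung than in intestine (log2 0.55, SE 0.10, adjusted p = 0.00202), 3.90-fold higher in lung than in bladder (log2 1.96, SE 0.10, adjusted p = 1.10e-06) and 2.67-fold higher in intestine than in bladder (log2 1.41, SE 0.09, adjusted p = 2.08e-06). Relative to the summed release channels per kb, Jph2 stood at 7.16 and 8.74 in lung, 2.45, 2.12 and 1.77 in intestine, and 1.63, 1.85 and 1.98 in bladder. Lung stood apart in that ratio, and intestine and bladder overlapped. Cardiac markers were also highest in lung, 11 of 14 tested being higher than in intestine and 1 lower, and 13 of 14 higher than in bladder and 0 lower (0 lower also under each of the 4 other scalings). Their part in the Jph2 values was not tested.

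Of the store-operated entry pair, the sensor differed between organs and the channel did not pass in any comparison. Stim1, which senses Ca2+ inside the store (chromosome 7, 101917013 to 102086526, plus strand), had 1215 and 898 in lung, 2174, 2218 and 2026 in intestine, and 1471, 1504 and 1399 in bladder. The tissues did not overlap. It was 2.05-fold lower in lung than in intestine (log2 -1.03, SE 0.12, adjusted p = 0.000134) and 1.47-fold higher in intestine than in bladder (log2 0.55, SE 0.11, adjusted p = 0.00194). It was 1.39-fold lower in lung than in bladder (log2 -0.48, SE 0.12, adjusted p = 0.0105), a call that was lost with intestine left out of the fit (adjusted p = 0.0697) and with the deposited scaling undone (log2 0.031, adjusted p = 0.883).

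Orai1, the pore of that entry pathway (chromosome 5, 123153137 to 123168519, plus strand), had 643 and 920 in lung, 849, 802 and 869 in intestine, and 840, 850 and 924 in bladder. All tissues overlapped. The log2 difference was -0.13 (95% interval -0.45 to 0.20, adjusted p = 0.518) for lung minus intestine, -0.18 (-0.50 to 0.14, adjusted p = 0.357) for lung minus bladder and -0.05 (-0.34 to 0.24, adjusted p = 0.755) for intestine minus bladder. The lung values rest on libraries that differ: without lung library 2 both lung differences passed, at -0.38 (adjusted p = 0.0213) and -0.44 (adjusted p = 0.0115), while without lung library 1 they were 0.13 and 0.08. Orai1 over Stim1, per kb of exon, was 2.39 and 4.63 in lung, 1.76, 1.63 and 1.94 in intestine, and 2.58, 2.55 and 2.98 in bladder. Intestine had the lowest ratios, and lung and bladder overlapped.

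**Figure D4:**
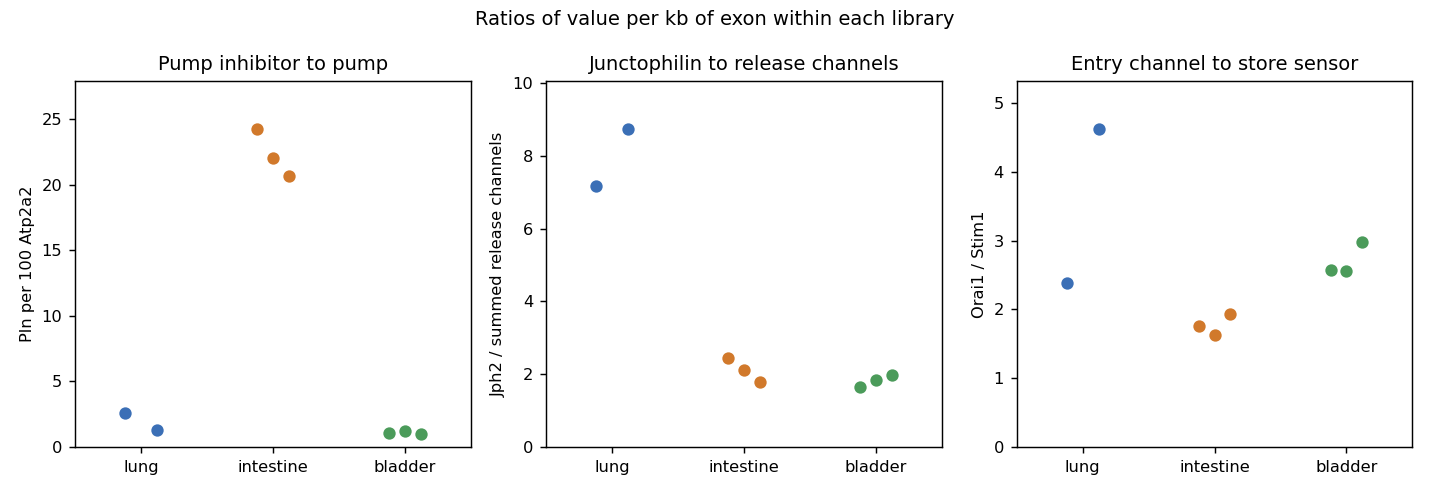
Ratios within each library of lung, intestine and bladder, from values per kb of exon (vertical axes start at 0): Pln per 100 Atp2a2, Jph2 over the 5 release channels, and Orai1 over Stim1. Points are libraries. The first ratio is 20.7 to 24.3 in intestine and the second 7.16 and 8.74 in lung.

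The order of the 10 genes by mean value per kb depends on the exon length counted for each gene. In lung it ran Atp2a2 (943 ± 180.0, SD, n = 2), Jph2 (761 ± 21.8), Orai1 (341 ± 85.3), Stim1 (102 ± 21.6), Itpr1 (63.1 ± 15.9), Itpr2 (21.4 ± 3.58), Pln (19.03 ± 12.05), Itpr3 (6.76 ± 2.04), Ryr2 (4.79 ± 0.737) and Ryr3 (0.448 ± 0.186). In intestine it ran Atp2a2 (1260 ± 26.2, SD, n = 3), Jph2 (523 ± 61.2), Orai1 (366 ± 14.99), Pln (282 ± 25.3), Stim1 (206 ± 9.70), Itpr3 (109.5 ± 13.9), Itpr1 (94.2 ± 3.66), Itpr2 (35.8 ± 5.23), Ryr2 (8.93 ± 0.435) and Ryr3 (0.527 ± 0.422). In bladder it ran Atp2a2 (1189 ± 80.7, SD, n = 3), Orai1 (379.7 ± 20.0), Jph2 (195 ± 2.94), Stim1 (141 ± 5.18), Itpr3 (47.4 ± 8.45), Itpr1 (36.5 ± 1.83), Itpr2 (23.0 ± 1.42), Pln (12.9 ± 2.41), Ryr3 (0.703 ± 0.563) and Ryr2 (0.301 ± 0.315). Neighbours in these orders overlapped between libraries for Itpr2 and Pln in lung, Itpr3 and Itpr1 in intestine, and Ryr3 and Ryr2 in bladder. Pln stood above Stim1 per kb in intestine, though by mean value Stim1 was higher there, at 2139 against 777. In lung Pln stood below Itpr1 and Itpr2, and in bladder below all 3 inositol trisphosphate receptors.

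Start sites of 7 of the 10 genes matched in the RefSeq promoter table (build GRCm38.p6). The 250 bases before the start are shown for Ryr2, Itpr3, Pln and Jph2, 5′ to 3′ on the gene's strand, because these members had the largest differences between organs. Capitals mark matches on either strand to a motif: TGATAAG (bound by GATA factors), TATAAA (letters found in a TATA box), CCAAT (bound by NF-Y) or GGGCGG (bound by Sp1). Matches count at any position in the window. The CArG box, to which serum response factor binds in muscle genes, and the MEF2 site were searched as well.
Ryr2, chr13:12106946-12107195, minus strand: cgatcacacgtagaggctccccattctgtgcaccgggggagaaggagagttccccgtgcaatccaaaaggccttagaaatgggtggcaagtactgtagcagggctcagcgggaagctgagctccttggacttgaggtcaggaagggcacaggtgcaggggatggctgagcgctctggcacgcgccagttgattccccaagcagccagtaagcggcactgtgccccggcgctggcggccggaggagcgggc
Itpr3, chr17:27057054-27057303, plus strand: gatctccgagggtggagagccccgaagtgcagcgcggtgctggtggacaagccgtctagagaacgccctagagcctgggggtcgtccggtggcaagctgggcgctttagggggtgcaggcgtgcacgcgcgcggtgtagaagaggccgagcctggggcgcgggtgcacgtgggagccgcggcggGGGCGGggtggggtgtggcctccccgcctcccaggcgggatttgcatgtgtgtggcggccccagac
Pln, chr10:53337436-53337685, plus strand: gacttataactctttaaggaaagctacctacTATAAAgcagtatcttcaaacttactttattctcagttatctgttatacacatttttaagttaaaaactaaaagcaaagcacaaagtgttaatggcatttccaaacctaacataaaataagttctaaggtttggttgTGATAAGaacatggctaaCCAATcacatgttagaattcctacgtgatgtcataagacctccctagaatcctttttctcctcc
Jph2, chr2:163397994-163398243, minus strand: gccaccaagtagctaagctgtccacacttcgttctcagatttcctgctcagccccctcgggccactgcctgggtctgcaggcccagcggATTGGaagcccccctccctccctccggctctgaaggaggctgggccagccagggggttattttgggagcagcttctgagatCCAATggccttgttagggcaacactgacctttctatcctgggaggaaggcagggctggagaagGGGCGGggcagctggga

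The Pln window stood apart in composition, with 32.8% G and C and 1 CG pair, against 63.2% and 14 for Ryr2, 72% and 25 for Itpr3, and 62% and 5 for Jph2. The median over 32851 RefSeq windows of that length was 52.4%. Pln was also the only one of the 7 genes with TATAAA (12.4% of all windows) or TGATAAG (2.05%), and it had 1 CCAAT (33.8%). Its TATAAA lay at -219 to -214 from the start, and whether it acts as a TATA box was not tested. Jph2 had 2 matches to CCAAT and 1 to GGGCGG (32.7%), Itpr3 had 1 GGGCGG, and Ryr2 had none of the 4. No CArG box (1.47% of all windows) or MEF2 site (2.92%) lay in the windows of the 7 genes, which says only that these letters are not there. Within each of the 8 windows of the 7 genes, the matches, 28 in all, did not overlap each other. Jph2 has 2 start sites whose windows share most of their bases, so its matches are counted in both. Pln and Itpr3, with log2 differences of -4.01 and -4.02 for lung minus intestine, have windows below and above that median.

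The genes most like each member in pattern were sought over the 8 libraries among 12525 genes with a mean of at least 100 in a tissue, by the root mean square (RMS) difference of centred log2 values. For Ryr2 they were Akap6 (RMS 0.40), a scaffold that anchors protein kinase A at muscle membranes, and Hrc (0.43), a Ca2+-binding protein of the reticulum lumen. Hrc had 81 and 85 in lung, 195, 157 and 136 in intestine, and 13, 5 and 0 in bladder. For Pln they were Ccser1 (0.33) and Cyfip2 (0.33), a regulator of actin, and for Itpr3 Shtn1 (0.22), an axon growth gene, and the potassium channel Kcnk5 (0.25). For Jph2 they were Haus8 (0.14), a spindle protein, and Rhbdf2 (0.14), an inactive rhomboid protein. For Itpr1 they were Trp53inp2 (0.09) and the ubiquitin ligase gene Fbxo32 (0.11), and for Itpr2 Tef (0.12), a clock-controlled factor, and Usp24 (0.12). For Stim1 they were the long noncoding RNA Neat1 (0.07) and Gcc1 (0.08), for Atp2a2 the splicing factor Sf3b1 (0.06) and Abcd3 (0.06), for Orai1 Slc25a1 (0.04) and Rpl22 (0.05), and for Ryr3 only distant ones, Arhgap19 (0.69) and Rexo5 (0.70).

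Genes that work with the members were taken in 6 lists. The shares of all tested genes called, against which their counts stand, were 39.5% for lung minus intestine, 41% for lung minus bladder and 51.9% for intestine minus bladder. Of 24 tested partners of the release channels, 3 were higher and 5 lower in lung than in intestine, 5 higher and 11 lower in lung than in bladder, and 7 higher and 11 lower in intestine than in bladder. Their median log2 difference was -0.03, -0.33 and -0.33 in that order, beside -0.04, 0 and 0.06 over all tested genes. The directions turned with the deposited scaling undone, to 6 higher and 3 lower, 10 and 1, and 10 and 4 in the same order, and scaling from genes of low read density gave 7 and 3 for lung minus intestine. Casq1, the calsequestrin described in skeletal muscle as the Ca2+ buffer of the store, had 1291 and 1246 in lung, 196, 175 and 151 in intestine, and 20, 14 and 12 in bladder. It was higher in lung than in intestine (log2 2.87, SE 0.26, adjusted p = 2.97e-05) and than in bladder (log2 6.31, SE 0.26, adjusted p = 4.16e-07). Trdn, which encodes triadin, a partner of ryanodine receptors and calsequestrin, had 78 and 57 in lung, 4, 1 and 0 in intestine, and 11, 4 and 3 in bladder. Cardiac markers are highest in lung as well. Skeletal muscle markers summed to 640 to 849 in lung, 367 to 421 in intestine and 1310 to 1818 in bladder. The part of either in these values was not tested. Tmem38b, a potassium channel of the reticulum, averaged 1161.5 ± 21.9 in lung (SD, n = 2), 1576 ± 180.4 in intestine and 411 ± 27.2 in bladder (SD, n = 3 each). Irag1, which inhibits Itpr1 when cGMP-dependent kinase acts on it, was at 3001 and 1252 in lung, 3320, 2937 and 2455 in intestine, and 487, 312 and 375 in bladder. Cd38, an enzyme that makes cyclic ADP-ribose, averaged 165 ± 28.3 in lung, 965 ± 59.0 in intestine and 320.3 ± 68.6 in bladder, and Tpcn1, an endolysosomal channel, 292 ± 38.2, 339.7 ± 47.1 and 688 ± 87.5.

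Chosen after their values were seen, 3 more partners are named because they touch the members directly. Casq2, the calsequestrin of heart and smooth muscle, had 175 and 70 in lung, 704, 485 and 446 in intestine, and 81, 56 and 76 in bladder, and was lower in lung than in intestine (log2 -2.26, adjusted p = 0.00126) and higher in intestine than in bladder (log2 2.91, adjusted p = 8.39e-05). Fkbp1b, which binds and steadies Ryr2, had 110 and 215 in lung, 77, 91 and 73 in intestine, and 304, 317 and 280 in bladder, so its order of tissues was not that of Ryr2. Sln, which encodes sarcolipin, another SERCA inhibitor, had 156 and 89 in lung, 102, 183 and 159 in intestine, and 5, 0 and 2 in bladder. Unlike Pln it passed for lung minus bladder (log2 5.50, adjusted p = 0.000225) and not for lung minus intestine (log2 -0.28, adjusted p = 0.773), although the difference between the 2 genes was not tested.

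Of 16 tested partners of the pump, 4 were higher and 2 lower in lung than in intestine, 9 higher and 2 lower in lung than in bladder, and 9 higher and 3 lower in intestine than in bladder, with medians of 0.10, 0.72 and 0.99. Undoing the deposited scaling gave 7 and 1, 13 and 0, and 12 and 1, and equal sums also gave 7 and 1 for lung minus intestine. Atp2a3, which encodes SERCA3, a pump known from platelets, endothelium and epithelium, had 2995 and 1623 in lung, 7440, 6998 and 7228 in intestine, and 913, 1098 and 1035 in bladder. It was lower in lung than in intestine (log2 -1.71, SE 0.21, adjusted p = 0.000171) and higher in intestine than in bladder (log2 2.83, SE 0.18, adjusted p = 2.47e-06), where Atp2a2 did not pass. Endothelial markers summed to 7021 and 7706 in lung, 11568 to 13313 in intestine and 4702 to 6112 in bladder, and their part was not tested. Ppp1r1a, an inhibitor of the phosphatase that acts on phospholamban, averaged 517 ± 35.4 in lung, 197 ± 20.3 in intestine and 51.7 ± 13.7 in bladder, and the kinase gene Camk2g 556.5 ± 40.3, 550 ± 74.1 and 166 ± 16.1. Sypl2, which encodes mitsugumin of muscle triads, had 25 and 15 in lung, 47, 33 and 19 in intestine, and was listed at 0 in each bladder library. Hax1, a phospholamban-binding protein, averaged 545 ± 87.7 in lung against 383 ± 18.9 in intestine, a log2 difference of 0.50 (SE 0.13, adjusted p = 0.0155).

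Of 15 tested junction genes, 3 were higher and 1 lower in lung than in intestine, 3 higher and 2 lower in lung than in bladder, and 4 higher and 3 lower in intestine than in bladder, with medians of 0.03, 0.22 and -0.01. With the deposited scaling undone the comparisons with bladder gave 8 and 0 for lung and 9 and 0 for intestine. Speg, a kinase that acts at the junctions of striated muscle and binds Jph2, had the same order of tissues as Jph2, at 2830 and 2590 in lung, 1709, 1372 and 1521 in intestine, and 450, 405 and 566 in bladder. Jph1, the junctophilin known from skeletal muscle, averaged 205 ± 50.9 in lung, 85.7 ± 13.2 in intestine and 45.7 ± 4.93 in bladder. Jph3, known from neurons, had 1 and 0 in lung, 149, 151 and 161 in intestine, and 3, 4 and 2 in bladder, where all 13 enteric neuron markers were also higher in intestine than in bladder. The part of neurons in that value was not tested. C2cd2l, a lipid transfer protein of membrane contacts, averaged 678.5 ± 75.7 in lung, 815 ± 36.5 in intestine and 566 ± 87.8 in bladder, and Gramd1a, a sterol transporter, 1494.5 ± 88.4, 1645 ± 69.9 and 1954 ± 190.

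Of 16 tested genes of store-operated entry, 2 were higher and 7 lower in lung than in intestine, 2 higher and 8 lower in lung than in bladder, and 5 higher and 6 lower in intestine than in bladder, with medians of -0.19, -0.42 and -0.15. With the deposited scaling undone the comparisons with bladder were 6 and 3 for lung and 6 and 1 for intestine. Orai2, an ORAI protein that can join Orai1 in the pore, had 159 and 197 in lung, 285, 391 and 320 in intestine, and 402, 554 and 506 in bladder, and was lower in lung than in bladder (log2 -1.44, SE 0.20, adjusted p = 0.000387). Homer2, a scaffold of Ca2+ channels, had 12 and 26 in lung, 295, 309 and 313 in intestine, and 358, 400 and 406 in bladder. The cation channel gene Trpc6 averaged 341 ± 24.0 in lung, 236 ± 81.0 in intestine and 39.7 ± 4.93 in bladder. Cracr2a, a Ca2+ sensor that stabilises STIM1 and ORAI1, averaged 21 ± 5.66 in lung, 201 ± 24.6 in intestine and 73 ± 28.2 in bladder, and Saraf, which turns the entry off, 2556.5 ± 87.0, 2303 ± 31.0 and 3353 ± 115.

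Of 21 tested genes that supply or limit inositol trisphosphate, 6 were higher and 9 lower in lung than in intestine, 9 higher and 3 lower in lung than in bladder, and 10 higher and 3 lower in intestine than in bladder, with medians of -0.35, 0.18 and 0.61. Undoing the deposited scaling gave 6 and 7, 12 and 1, and 13 and 0. Rgs5 and Rgs4, which shorten Gq signalling in mural cells, had their highest values in intestine: Rgs5 averaged 626.5 ± 276 in lung, 4203 ± 189 in intestine and 293 ± 45.4 in bladder, and Rgs4 1812 ± 822, 4243 ± 402 and 341 ± 34.1. Rgs2, of the same family, was instead higher in lung, at 2929 and 2749, than in intestine, at 1375, 1330 and 1352 (log2 1.07, SE 0.08, adjusted p = 1.00e-05). The phospholipase Plcg2 averaged 86 ± 19.8 in lung, 464 ± 37.6 in intestine and 93.3 ± 6.51 in bladder. Inpp5a, which removes inositol trisphosphate, averaged 3278.5 ± 182 in lung, 3198 ± 235 in intestine and 1780.3 ± 70.1 in bladder.

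Of 10 tested genes of Ca2+ extrusion, 1 was higher and 3 lower in lung than in intestine, 4 higher and 2 lower in lung than in bladder, and 5 higher and 2 lower in intestine than in bladder, with medians of -0.22, 0.13 and 0.68. Undoing the deposited scaling gave 1 and 3, 5 and 2, and 6 and 1. Atp2b1, the plasma membrane pump of most cells, had 1298 and 1454 in lung, 2555, 2747 and 2596 in intestine, and 2911, 2543 and 2767 in bladder, so both lung libraries lay below all others. Slc8b1, the sodium-calcium exchanger of mitochondria, had 851 and 785 in lung, 1047, 953 and 913 in intestine, and 2315, 2827 and 2768 in bladder. Atp2b2, known from neurons and hair cells, averaged 2.5 ± 0.707 in lung, 104.7 ± 12.3 in intestine and 4.67 ± 5.69 in bladder. The exchangers Slc24a3, at 637 ± 308, 899 ± 45.5 and 248.7 ± 67.1 in the same order of tissues, and Slc24a5, at 4.5 ± 0.707, 32 ± 15.1 and 5.33 ± 1.53, had their highest means in intestine.

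**Figure D5:**
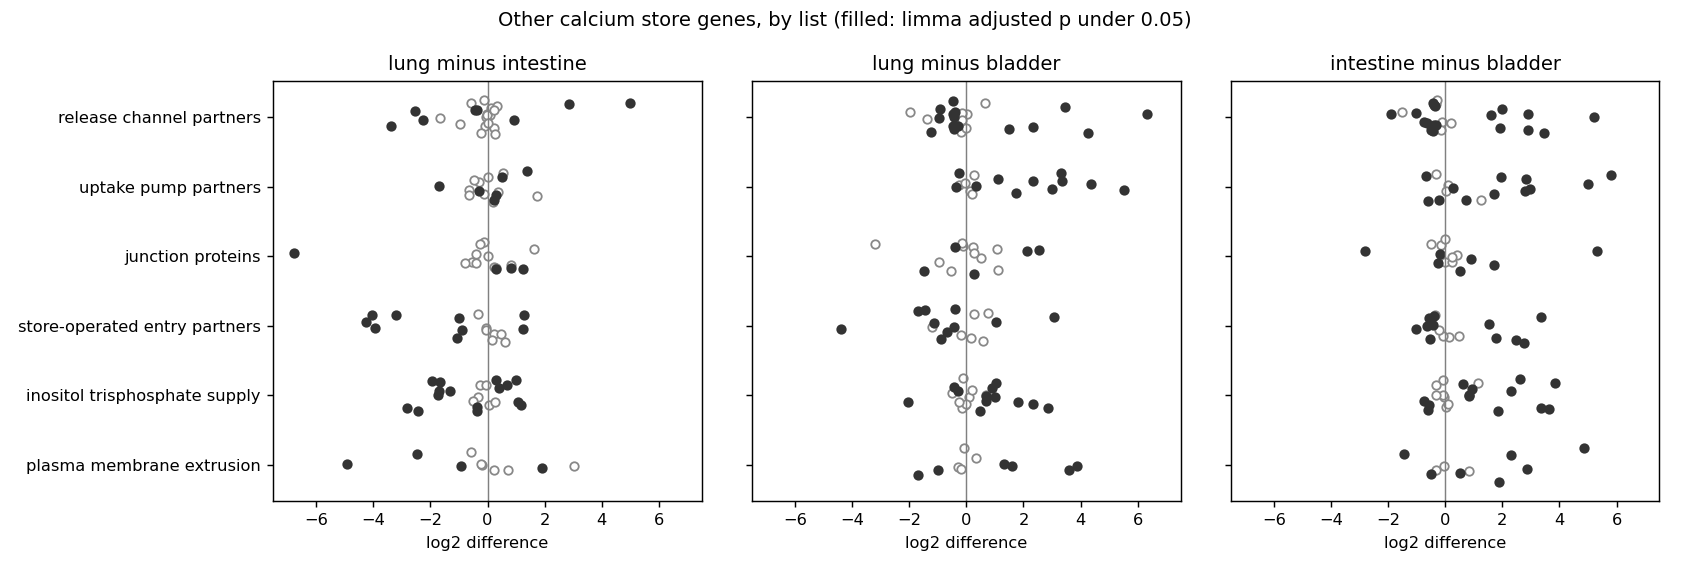
Log2 difference (horizontal axes) of each tested gene of the 6 lists, for lung minus intestine, lung minus bladder and intestine minus bladder. Filled points passed a limma adjusted p of 0.05, and the vertical scatter within a list has no meaning. Of 16 pump partners, 9 were higher and 3 lower in intestine than in bladder.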

How the data were processed

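RNA was measured in 8 libraries, made per the labels' protocols from at most 10 ng of total RNA with the SMART-Seq v4 kit, which does not mark strand. Tools listed in the submitters' processing notes, without roles, are DESeq2 1.36.0, featureCounts 2.0.4, STAR 2.7.10a, Trimmomatic 0.39 and Picard 3.0.0, with build mm39. The deposited file holds 1 score per gene and library, read from its values as normalized counts that the authors rounded. The gaps between low values gave what 1 read is worth, 0.822 to 1.268 by library, and so the depth. This step and the fit were tried on simulated data. For the fit, a small set of genes changed, in lung only, and libraries needed no scaling. That simulation therefore does not bear on the scaling here. Limits from a count of 0 cover counting error only, since amplified reads are not independent molecules.

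Log2(value + 1) of genes with at least 10 in at least 2 libraries (18097 genes) was fitted with limma 3.58.1 and an intensity trend in R 4.3.3, all 8 libraries with a mean per tissue. Exon lengths came from GENCODE M21, built on another assembly, so only lengths were used. They join the exons of all transcripts of a gene and cover 96.8% of gene IDs. Alternatives changed the pseudocount, filter, scaling, test, libraries and replicate term. The scaling from genes of low read density was added after seeing the data.

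The members and lists were chosen with earlier results of these data known. By rule, named genes are all members, the 3 genes of smallest p per list and pair, and the 2 genes of most like pattern per member. A gene that this rule names is not reported here. Casq2, Fkbp1b, Sln, Prkg1, Plcb4, Myh6 and Cspg4 fall outside the rule and were chosen after their values were seen. Genes at adjusted p under 0.05 are called higher or lower.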

Additional observations from a re-analysis of the deposited data

How the results depend on the processing

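Over 20 alternatives, 17 of the 20 called differences of members kept direction and call in all of them. The other 3 were Atp2a2 in lung against both organs and Stim1 in lung against bladder. The number of members lower in lung than in bladder, 3, was 1 with the deposited scaling undone and 1 with intestine left out of the fit. Leaving out 1 library in turn gave 2 to 3 there, and 3 to 4 members higher. Differences that turned sign were small. With the deposited scaling undone, lung minus bladder was 0.11 for Ryr3, 0.39 for Itpr2, 0.17 for Atp2a2, 0.031 for Stim1 and 0.33 for Orai1, and intestine minus bladder was 0.34 for Orai1. Equal sums gave 0.029 for Itpr2 in lung minus bladder and 0.039 for Orai1 in intestine minus bladder. Quantile normalization gave 0.13 for Atp2a2 in lung minus bladder, and scaling from genes of low read density, chosen after seeing the data, gave -0.075 for Atp2a2 in intestine minus bladder. A pseudocount of 5 gave -0.016 for Ryr3 in lung minus intestine. Undoing the deposited scaling leaves depth uncorrected, and causes were not tested otherwise. Leaving out 1 library, Ryr3 ranged from -0.66 to 0.67 for lung minus intestine, -0.95 to 0.24 for lung minus bladder and -1.05 to 0.32 for intestine minus bladder. Orai1 ranged from -0.38 to 0.13 and from -0.44 to 0.080 for lung minus intestine and lung minus bladder, Itpr2 from -0.29 to 0.056 and Pln from -0.27 to 1.09 for lung minus bladder. Where 1 lung library was left out, the other was assumed to vary like the other tissues. The share of calls that were higher, 40.3% for lung minus intestine, was 59.5% with quantile normalization and 50.9% with the deposited scaling undone. For intestine minus bladder it was 41.7% with quantile normalization, and for lung minus bladder 58.5% with equal sums.

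Whether the label numbers 1 to 3 pair the libraries could not be decided. Deviations from tissue means of same-numbered libraries correlated at -0.03 to 0.06 across genes, and those of other pairs at -0.07 to 0.07. With the replicate number as a block, 6496, 6786 and 9040 genes were called for lung minus intestine, lung minus bladder and intestine minus bladder, against 7157, 7418 and 9395 without it. The members called were the same in number, and Ryr3 in lung minus intestine was -0.27.

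Few reads limit Ryr3, at 2 to 20 a library, and Ryr2 in bladder, at values of 19, 5 and 2. Pln was also low in bladder, at 34, 43 and 30, and in lung library 2, at 29. No member was without reads in any library. A gene without reads, such as Sypl2 in bladder, could have had 3, which is 2.47 to 3.805 in value by library.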

Other observations

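The 2 lung libraries differed from each other in several genes of the store and its control. Irag1 had 3001 and 1252, Prkg1, the cGMP-dependent kinase that acts on it, 821 and 517, Plcb4 3311 and 1594, Rgs4 2393 and 1231, and the cardiac myosin gene Myh6 897 and 279, while Orai1 had 643 and 920 and Fkbp1b 110 and 215. Of the members, Ryr2, Itpr1, Atp2a2, Pln and Stim1 had the higher value in lung library 1, and Ryr3, Itpr2, Itpr3, Jph2 and Orai1 in lung library 2. These genes were chosen after their values were seen.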
